A study of Mus musculus with 10 samples.

Results

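The small leucine-rich proteoglycans are a family of secreted proteins of the extracellular matrix. The 8 genes described here are Lum, Dcn, Bgn, Fmod, Ogn, Aspn, Prelp and Omd. They were listed by name as members of the family, with earlier results of these data known, and they are 8 of 19057 genes named on the array. Every probe whose platform symbol is one of them was used, 15 probes of 45281. RNA of frozen skin melanomas had been hybridised to Illumina MouseWG-6 v2.0 arrays, which use 1 colour, with 1 array for each tumor. The tested tumors were 5 amelanotic melanomas labelled MPNST-like, after the malignant peripheral nerve sheath tumors that they resemble. They were set against 5 pigmented melanomas. All 10 tumors came from mice of the C57BL6 strain with the genotype BrafV600E-CDK4R24C, in which Braf carries an activating mutation and Cdk4 a mutation known to make the kinase resist its INK4 inhibitors. Both groups had received tamoxifen on the skin for 4 days, to switch on the mutant Braf allele, and then 1 topical dose of the carcinogen DMBA. The labels give no age, no driver of the tamoxifen-dependent recombination and no statement that each tumor came from a separate mouse, so p-values measure only the spread between these tumors. Each specimen was a whole excised tumor, in which fewer cells of a type and less RNA per cell cannot be told apart.

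Small leucine-rich proteoglycans have a curved core of leucine-rich repeats that binds collagen fibrils, and most carry chondroitin, dermatan or keratan sulfate chains. They are known for setting the diameter and spacing of collagen fibrils, and several bind growth factors such as TGF-beta. Decorin (Dcn), biglycan (Bgn) and asporin (Aspn) form class I, lumican (Lum), fibromodulin (Fmod), PRELP (Prelp) and osteomodulin (Omd) form class II, and osteoglycin (Ogn) belongs to class III. In skin, the dermal fibroblast is a main source of decorin and lumican.

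The genes lie in few places of the genome. Dcn and Lum are neighbours on chromosome 10, Aspn, Omd and Ogn on chromosome 13, Prelp and Fmod on chromosome 1, and Bgn is on the X chromosome (RefSeq, GRCm38.p6). RefSeq promoter entries were at hand for 6 of the 8 genes, and Dcn and Lum had none. The 250 bases before the start site are printed, 5′ to 3′, for the 3 neighbours on chromosome 13, because their values differed most within a locus, and for Bgn, the most abundant of the genes that had an entry. They span chrX:73483351-73483600 for Bgn, chr13:49607765-49608014 for Ogn, chr13:49582212-49582461 for Omd and chr13:49544193-49544442 for Aspn, all on the plus strand of GRCm38.p6. Capitals mark matches, on either strand, to the letters TATAAA, known from the TATA box, to TGANTCA of AP-1 sites, to GGAATG of TEAD sites, to GGGCGG of Sp1 sites and to TGACGTCA of the cyclic AMP response element.
Bgn: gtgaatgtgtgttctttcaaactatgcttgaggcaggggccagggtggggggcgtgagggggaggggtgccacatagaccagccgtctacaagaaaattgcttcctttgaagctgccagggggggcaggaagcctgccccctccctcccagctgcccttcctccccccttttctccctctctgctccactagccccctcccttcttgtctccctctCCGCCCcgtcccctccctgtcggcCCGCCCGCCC
Ogn: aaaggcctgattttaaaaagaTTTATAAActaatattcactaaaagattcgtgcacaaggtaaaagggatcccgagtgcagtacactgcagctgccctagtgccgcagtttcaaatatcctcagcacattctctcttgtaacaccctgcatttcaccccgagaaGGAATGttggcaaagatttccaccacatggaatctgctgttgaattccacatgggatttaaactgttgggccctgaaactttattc
Omd: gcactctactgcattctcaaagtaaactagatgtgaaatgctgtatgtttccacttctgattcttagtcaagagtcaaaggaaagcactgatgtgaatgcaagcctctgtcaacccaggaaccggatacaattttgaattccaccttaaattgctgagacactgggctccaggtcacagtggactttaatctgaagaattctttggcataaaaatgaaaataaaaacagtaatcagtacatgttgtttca
Aspn: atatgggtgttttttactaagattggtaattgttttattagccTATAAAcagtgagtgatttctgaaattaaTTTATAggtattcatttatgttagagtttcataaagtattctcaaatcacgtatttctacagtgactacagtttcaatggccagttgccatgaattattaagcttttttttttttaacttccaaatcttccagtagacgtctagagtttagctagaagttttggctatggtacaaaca

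The Bgn window held 3 Sp1 matches, the last 2 of which overlap, and Sp1 matches occur in 32.7% of all 32851 RefSeq windows of this length. The Ogn window held 1 TEAD match (12.6% of all windows) and a pair of overlapping TATA box matches on opposite strands, where 12.4% of all windows hold at least 1 such match. Aspn held 2 TATA box matches, and the Omd window held none of these motifs. Matches are letters in a window and say nothing of binding.

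Arrays of both groups overlapped in signal, but those of MPNST-like tumors ran higher. At a detection p-value under 0.05, 19274 to 21581 probes were detected per array in MPNST-like tumors and 17908 to 20120 in pigmented tumors. The median scanner intensity of an array was 87.4 to 93.9 in MPNST-like tumors and 79.4 to 89 in pigmented tumors. All 9 melanocyte markers examined (Tyr, Tyrp1, Dct, Pmel, Mlana, Mitf, Sox10, Slc45a2 and Oca2) were lower in the MPNST-like tumors, and their summed level was 1920 to 28600 intensity units there and 70000 to 77300 in pigmented tumors. Sox10 differed least (log2 difference -0.87) and stayed bright, at 10.75 to 12.03 in MPNST-like tumors. Dct overlapped between the groups, at 14.01 in MPNST-like 5 against 13.95 to 14.30 in pigmented tumors. Levels below are log2 normalized intensities of the brightest probe of a gene, and differences are MPNST-like minus pigmented, from limma fitted over 11984 genes with Benjamini-Hochberg adjustment, called at an adjusted p under 0.05. Of these genes, 38.8% were called, 18.6% as higher in MPNST-like tumors and 20.2% as lower. That balance followed the scaling of the arrays. The median difference of all genes was 0.01 here, and 48% of the calls were higher. It was 0.33 with 81% higher when arrays were scaled to one median, and -0.22 with 24.2% higher in the values that the authors normalized.

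Proteoglycan genes were higher in the MPNST-like tumors. Of the 8 genes 7 rose and 0 fell, against the 18.6% of all genes that were called higher. Their median log2 difference was 2.17, where the median of all genes was 0.01. Lum differed most and was the sixth largest increase among all genes, while Aspn did not pass and lay near background in every tumor. The filter on dim probes bears on this count. Fmod, Aspn and Omd were kept through their detection in MPNST-like tumors alone, and 2 of these 3 were called, whereas the other 5 genes were detected on at least 3 arrays of each group and 5 of 5 were called.

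**Figure D1:**
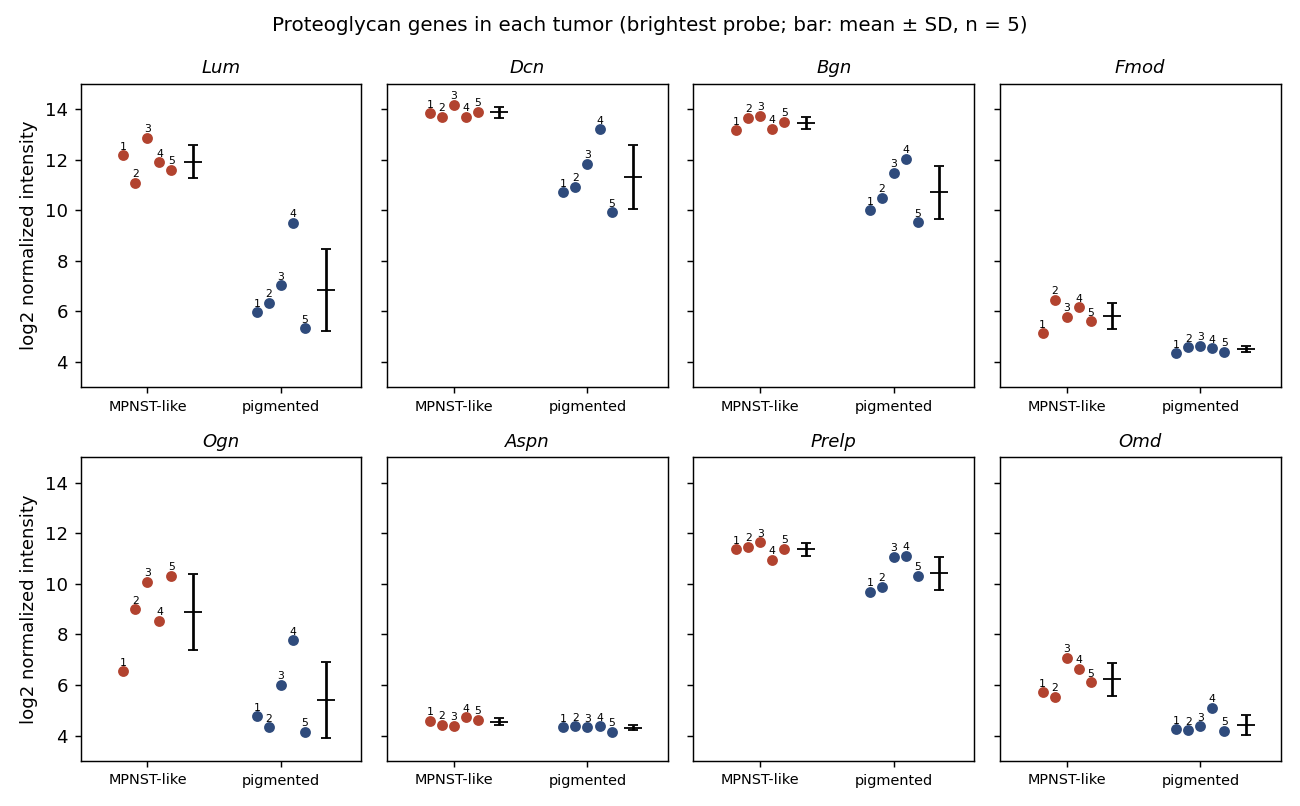
Log2 normalized intensity of the 8 genes in each tumor, with MPNST-like tumors left and pigmented tumors right in each panel. Points are tumors with their replicate number, and bars are the mean ± SD of 5 tumors. Lum, Dcn and Bgn do not overlap between the groups, Ogn and Prelp do, and pigmented 4 is the highest pigmented tumor for Lum, Dcn, Bgn, Ogn, Prelp and Omd.

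Among the class I genes, Dcn and Bgn were among the brightest signals of the MPNST-like tumors. Decorin binds collagen and TGF-beta and, in human cells, the receptors EGFR and MET. Dcn stood at 13.83, 13.69, 14.17, 13.70 and 13.89 in MPNST-like 1 to 5, against 10.71, 10.92, 11.84, 13.20 and 9.91 in pigmented 1 to 5. The groups did not overlap, although pigmented 4 came close to the lowest MPNST-like tumor. Dcn was 5.82-fold higher (log2 difference 2.54, SE 0.50, limma adjusted p = 0.0024). Its probe ranked between place 12 and place 53 of 45281 by scanner intensity on the MPNST-like arrays, and between place 110 and place 1622 on the pigmented arrays. By this probe the MPNST-like tumors lay close together (SD 0.20) and the pigmented ones were spread out (SD 1.26), where the median SD of all genes was 0.29 and 0.34. The dimmer Dcn probes did not all share that pattern. Their SDs in MPNST-like and pigmented tumors were 0.51 and 1.66 (ILMN_2596346), 0.77 and 0.86 (ILMN_2604695), and 0.95 and 0.47 (ILMN_1254458). Of the pigmented tumors, ILMN_1254458 was detected in only 1 of 5 and ILMN_2604695 in 4 of 5.

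Biglycan, the nearest relative of decorin, also acts as a signal at Toll-like receptors when it is released from matrix. Bgn stood at 13.16, 13.64, 13.73, 13.21 and 13.49 in MPNST-like 1 to 5, against 9.99, 10.49, 11.48, 12.03 and 9.51 in pigmented 1 to 5. All MPNST-like tumors lay above all pigmented ones. That held for 6 of the 8 proteoglycan genes and for 12.1% of all genes, while 25.9% of all genes had no overlap in either direction. Of these 6, Fmod, Omd and Aspn passed the filter through MPNST-like detection alone, which favours such a separation. Aspn was not called, and its lowest MPNST-like level was 4.38 against a highest pigmented level of 4.37. Among the genes detected on at least 3 arrays of each group, Lum, Dcn and Bgn did not overlap, and Ogn and Prelp did. Bgn was 6.71-fold higher (2.75, SE 0.42, limma adjusted p = 6.1e-04). In the authors' normalized values the differences were smaller, at 1.61 for Dcn and 1.92 for Bgn, and the Dcn call was lost within chip 2 (2.27, limma adjusted p = 0.060).

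Asporin competes with decorin for collagen and is known to restrain TGF-beta signalling in cartilage. Its only probe was detected in 3 of 5 MPNST-like tumors and in none of the 5 pigmented ones. Aspn stood at 4.58, 4.43, 4.38, 4.73 and 4.63 in MPNST-like 1 to 5, against 4.32, 4.37, 4.32, 4.37 and 4.16 in pigmented 1 to 5. These levels are close to background throughout, and the difference of 0.24 (SE 0.12) did not pass (limma adjusted p = 0.14). With 1 dim probe, a change in Aspn was not detectable on these arrays, which does not show that the gene was silent.

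Lumican led the class II genes. It is a keratan sulfate proteoglycan that regulates collagen fibrils in cornea and skin. Lum stood at 12.17, 11.09, 12.85, 11.89 and 11.59 in MPNST-like 1 to 5, against 5.96, 6.34, 7.03, 9.50 and 5.32 in pigmented 1 to 5. The groups did not overlap, and pigmented 4 was the highest pigmented tumor by a wide margin. Lum was 34.0-fold higher (5.09, SE 0.67, limma adjusted p = 2.6e-04), and only 1.09% of all genes were called with a log2 difference over 3. Both Lum probes gave nearly the same size, 5.20 and 5.09, and the call was kept in all 23 alternatives, from 4.31 without background correction to 6.14.

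Prelp, which is known to anchor basement membranes to connective tissue, was abundant in both groups and moved least among the called genes. It stood at 11.37, 11.46, 11.64, 10.95 and 11.38 in MPNST-like 1 to 5, against 9.68, 9.89, 11.08, 11.10 and 10.31 in pigmented 1 to 5. MPNST-like 4 fell below pigmented 3 and pigmented 4, so the groups overlapped. The difference was 0.95 (SE 0.29, 1.93-fold, limma adjusted p = 0.024). Within chip 1 it was 1.63 (limma adjusted p = 0.060) and within chip 2 it was 0.49 (0.24), and the difference between the chips of -1.14 had an unadjusted p of 0.025 and an adjusted p of 1.0 in limma. The call was also lost in the authors' values (0.19, limma adjusted p = 0.70) and without MPNST-like 3 (0.056), pigmented 1 (0.054) or pigmented 5 (0.052).

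Fmod and Omd were dim, and their differences rest on background in the pigmented tumors. Fibromodulin guides the early assembly and cross-linking of collagen fibrils. Its brighter probe was detected in 5 of 5 MPNST-like and 1 of 5 pigmented tumors. Fmod stood at 5.12, 6.46, 5.79, 6.15 and 5.60 in MPNST-like 1 to 5, against 4.34, 4.57, 4.64, 4.53 and 4.39 in pigmented 1 to 5. It rose by 1.33 (SE 0.23, limma adjusted p = 0.0011), with no overlap between the groups. The size was 0.50 without background correction (limma adjusted p = 0.0050).

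Omd encodes osteomodulin, first known as a keratan sulfate proteoglycan of bone. Its probe was likewise detected in 5 of 5 MPNST-like and 1 of 5 pigmented tumors. Omd stood at 5.72, 5.54, 7.07, 6.65 and 6.10 in MPNST-like 1 to 5, against 4.25, 4.21, 4.36, 5.09 and 4.20 in pigmented 1 to 5. The groups did not overlap, and Omd rose by 1.80 (SE 0.30, limma adjusted p = 0.0010). Without background correction its difference was 0.75 (limma adjusted p = 0.0043).

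Ogn, the class III gene, varied most between MPNST-like tumors. Osteoglycin, also called mimecan, takes part in collagen fibril formation. Ogn stood at 6.55, 9.00, 10.08, 8.55 and 10.32 in MPNST-like 1 to 5, against 4.76, 4.32, 6.0, 7.77 and 4.15 in pigmented 1 to 5. MPNST-like 1 lay below pigmented 4, so the groups overlapped, and the probe was detected in 5 of 5 MPNST-like and 3 of 5 pigmented tumors. Ogn rose by 3.50 (SE 0.82, limma adjusted p = 0.0064). The difference was 3.24 within chip 1 (limma adjusted p = 0.13) and 3.68 within chip 2 (0.026), and 1.90 when the 3 probes were averaged.

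Probes of the same gene differed more in size than in direction. Of the 15 probes 12 were higher and 0 lower, against 15.4% higher among all 22480 probes tested, and 7 of the 15 were kept through MPNST-like detection alone. The 4 Dcn probes gave 3.80, 3.29, 2.54 and 1.85, with limma adjusted p between 1.3e-04 and 0.0053. The brightest Dcn probe did not show the largest change. The 3 probes that the platform annotates to the RefSeq decorin transcript were all highest in MPNST-like 3. The probe ILMN_1254458, which the platform annotates to a cDNA clone, stood at 5.58, 7.47, 6.71, 5.17 and 6.82 in MPNST-like 1 to 5 and was highest in MPNST-like 2, against 4.21, 4.41, 4.30, 5.32 and 4.24 in pigmented 1 to 5. Skeletal muscle markers were high in MPNST-like 2, MPNST-like 5 and pigmented 4 (mean log2 level of 8 genes 11.53, 11.57 and 11.09) and between 4.54 and 7.61 in the other tumors, and their part in this probe's order was not tested.

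**Figure D2:**
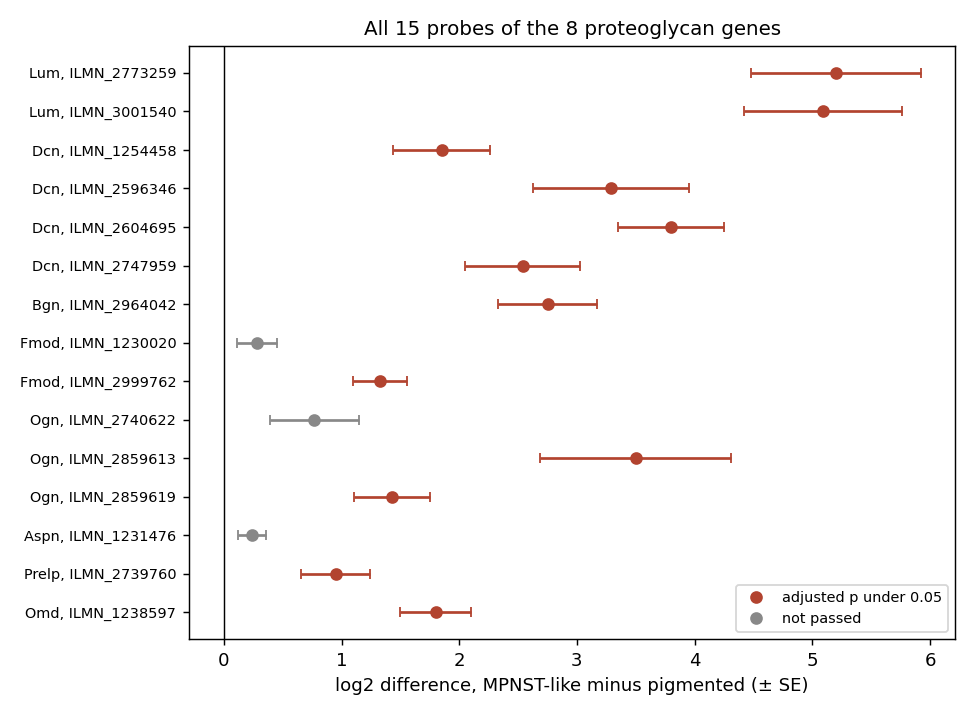
Log2 difference, MPNST-like minus pigmented, with its SE, for each of the 15 probes. Red points passed at a limma adjusted p under 0.05 and grey points did not. All points lie right of 0, the Lum probes farthest at 5.20 and 5.09, and the 3 grey points belong to Fmod, Ogn and Aspn.

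The Ogn probes spanned 0.77 to 3.50. Probe ILMN_2859619 was detected in 5 of 5 MPNST-like tumors, with a detection p of 0.049 in MPNST-like 1, and in no pigmented tumor. With the background correction used here it was at least 2.11-fold higher (limma adjusted p = 0.0059). Its log2 difference was 0.56 without that correction (limma adjusted p = 0.016) and 0.91 within chip 1, where the call was lost (0.34). Probe ILMN_2740622 had a difference of 0.77 and did not pass (limma adjusted p = 0.14), and passed without MPNST-like 1 (1.02, 0.046). The dimmer Fmod probe, detected in 3 of 5 MPNST-like tumors and no pigmented one, stood at 0.28 (limma adjusted p = 0.23).

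**Figure D3:**
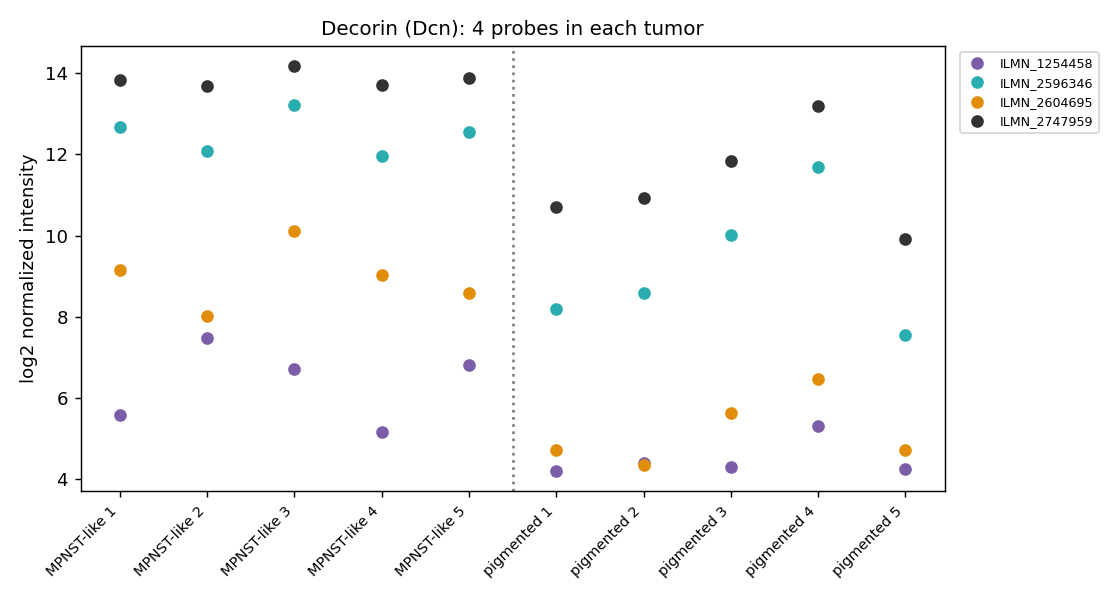
Log2 normalized intensity of the 4 Dcn probes in the 5 MPNST-like tumors (left of the dotted line) and the 5 pigmented tumors. ILMN_2747959, ILMN_2596346 and ILMN_2604695 are highest in MPNST-like 3, and ILMN_1254458 in MPNST-like 2 at 7.47. All 4 probes are highest in pigmented 4 among the pigmented tumors.

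Genes detected on all 10 arrays did not rise by one common amount. For each pair of Lum, Dcn, Bgn and Prelp, the difference between the 2 genes was taken in each tumor and compared between groups by an exact permutation test (two-sided, 252 assignments), with p adjusted over the 6 pairs. The rise of Lum exceeded that of Dcn by 2.55 (SE 0.30), that of Bgn by 2.34 (SE 0.46) and that of Prelp by 4.14 (SE 0.62), with exact adjusted p of 0.012, 0.019 and 0.012. Dcn and Bgn exceeded Prelp by 1.59 (SE 0.41) and 1.80 (SE 0.30), both at an exact adjusted p of 0.012. For Dcn against Bgn the difference was -0.21 (SE 0.18, exact adjusted p = 0.38). The unadjusted p of 0.0079 behind the value of 0.012 is the lowest possible with 5 tumors in each group. These sizes are those of the brightest probe of each gene and depended on the Dcn probe. With each of the other 3 Dcn probes in its place, Lum exceeded Dcn by 1.29 (SE 0.41) to 3.24 (SE 0.80), with exact adjusted p between 0.012 and 0.038. Dcn minus Bgn then ranged from -0.90 to 1.05 and changed its sign, with exact adjusted p between 0.056 and 0.17. Dcn minus Prelp lost its call with the probe ILMN_1254458 (0.90, exact adjusted p = 0.11). That probe also gave the values of 3.24 and -0.90. It was detected in 1 of 5 pigmented tumors, so its sizes rest on background there. Probe ILMN_2604695, which gave 1.29 and 1.05, was detected in 4 of 5 pigmented tumors, and ILMN_2596346 on all 10 arrays.

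The tumors within a group were not alike. Of the 8 genes, 6 were highest in pigmented 4 and 6 were lowest in pigmented 5 among the pigmented tumors, while 5 were highest in MPNST-like 3 among the MPNST-like ones. In the mean over the 8 genes, MPNST-like 1 to 5 stood at 9.06, 9.41, 9.96, 9.48 and 9.62, against 6.75, 6.89, 7.59, 8.45 and 6.49 in pigmented 1 to 5. Thus pigmented 4 lay nearest to the MPNST-like tumors. Without pigmented 4, MPNST-like 2 and MPNST-like 5, the 3 tumors with high skeletal muscle markers, 7 of the 8 genes were called higher, with Lum at 6.14 and Dcn at 3.06. That setting also drops the pigmented tumor in which 6 of the 8 genes were highest. Without pigmented 4 alone, Lum was 5.76 and Dcn 3.01. The part of muscle content in the proteoglycan differences was not tested.

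Markers of connective tissue moved with these genes. Of 10 fibroblast markers 8 were higher and 0 lower, where 18.6% of all genes were higher and 20.2% lower. Among the 8 were Mfap5 (4.02), a microfibril protein gene, Fap (3.32), a surface protease of activated fibroblasts, Pdgfra (3.23) and Thy1 (2.91). Of the 8, Fap and Sfrp2 were kept through MPNST-like detection alone, with detection in 2 and 1 of 5 pigmented tumors. The mean log2 level of the 10 markers was 8.09, 9.64, 9.16, 8.46 and 9.59 in MPNST-like 1 to 5, against 5.85, 6.24, 6.54, 8.0 and 5.71 in pigmented 1 to 5, and the summed level was 6400 to 14600 and 1120 to 5020 intensity units. The pigmented tumors ran in the same order for these markers as for Lum, with pigmented 4 highest and pigmented 5 lowest. The MPNST-like tumors did not, since MPNST-like 2 was highest for the markers and lowest for Lum. The order of the pigmented tumors was not particular to fibroblast markers. Mean levels of the skeletal muscle markers and of the pericyte and smooth muscle markers named below ran in that order too. Those of the macrophage, endothelial and Schwann cell markers did not. MPNST-like 1 and pigmented 4 had nearly the same marker level, 8.09 and 8.0, a pair picked after the values were seen. Lum was 12.17 in MPNST-like 1 and 9.50 in pigmented 4, Bgn 13.16 and 12.03, Dcn 13.83 and 13.20, Prelp 11.37 and 11.10, Omd 5.72 and 5.09, Fmod 5.12 and 4.53, Aspn 4.58 and 4.37, and Ogn 6.55 and 7.77. The 2 tumors also differed in the mean level of skeletal muscle markers (5.12 and 11.09) and of keratinocyte markers (7.09 and 9.85). These are single tumors, and no test was made of them. The part of fibroblast content in the proteoglycan differences was not tested.

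**Figure D4:**
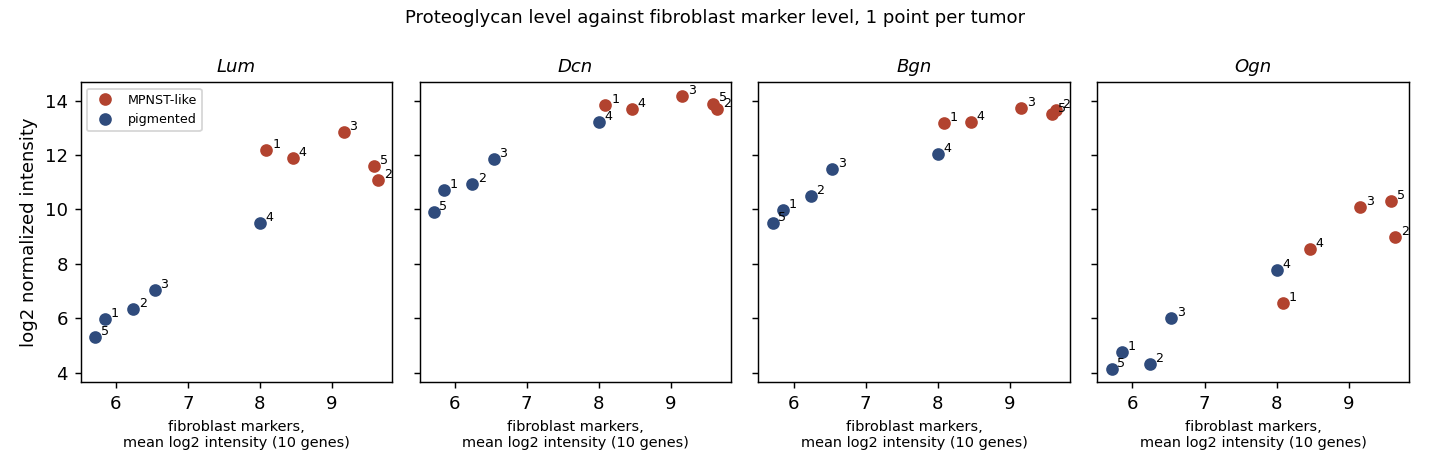
Log2 normalized intensity of Lum, Dcn, Bgn and Ogn (vertical axis) against the mean log2 intensity of 10 fibroblast markers (horizontal axis), 1 point per tumor with its replicate number. MPNST-like tumors lie between 8.09 and 9.64 on the horizontal axis and pigmented tumors between 5.71 and 8.0. At 8.09 and 8.0, MPNST-like 1 lies above pigmented 4 for Lum, Dcn and Bgn and below it for Ogn.

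Other cell types that can make these proteins were examined as well, where 18.6% of all genes were higher and 20.2% lower. Of 8 pericyte and smooth muscle markers 5 were higher and 0 lower, with Des at 2.67 and Pdgfrb at 2.07 (summed level 2040 to 5810 in MPNST-like and 538 to 3320 in pigmented tumors). Of 7 Schwann cell markers 4 were higher, led by Gap43 (5.14) and Ngfr (4.15), and their summed level was 2050 to 5350 in MPNST-like and 167 to 1240 in pigmented tumors. Gap43 and the pericyte marker Rgs5, also called higher, were each detected in 2 of 5 pigmented tumors. Both were thus kept through MPNST-like detection alone. All 7 macrophage markers examined were higher (summed level 3350 to 8230 in MPNST-like and 748 to 4050 in pigmented tumors), as were 3 of 7 endothelial markers, and 0 of 5 adipocyte markers were called. Keratinocyte markers were higher in 1 of 8 cases, Ivl at 2.60, and had their lowest MPNST-like level in MPNST-like 1 (7.09). Ogn was also lowest there, as were the mean levels of the fibroblast (8.09), pericyte and smooth muscle (6.76) and macrophage (8.40) markers. Cartilage, bone and tendon markers were near background. Acan, Comp, Ibsp, Sp7, Dmp1 and Tnmd did not pass the filter, and 0 of the 2 cartilage and bone genes tested (Col10a1 and Bglap2) and 0 of the 2 tendon genes tested (Scx and Mkx) were called. Their difference was at most 0.20, and their unadjusted p was above 0.05 for each. The parts of these cell types in the proteoglycan values were not tested.

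The remaining members of the family were mostly below detection. Of 8 further family genes with a probe, 7 did not pass the filter (Kera, Epyc, Optc, Ecm2, Chad, Nyx and Podnl1), and none of their 10 probes was detected on more than 2 arrays. These include the neighbours Kera and Epyc of Lum, Ecm2 of Aspn, and Optc of Prelp. Podn, which encodes podocan, stood at 5.42, 6.56, 6.44, 5.47 and 5.60 in MPNST-like 1 to 5, against 4.17, 4.38, 4.46, 5.22 and 4.30 in pigmented 1 to 5. It rose by 1.39 (SE 0.28, limma adjusted p = 0.0031), and was 0.55 without background correction. Podn was detected in 5 of 5 MPNST-like and 1 of 5 pigmented tumors, so it was kept through MPNST-like detection alone. Its call was lost within chip 1 (1.71, limma adjusted p = 0.14).

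Genes outside the family that lie next to the proteoglycans on the chromosome were tested at 3 loci. Within 500 kb on either side of Aspn, Omd and Ogn, 7 genes outside the family were tested, of which 1 was higher, 2 were lower and 4 did not pass. Around Prelp and Fmod, 0 of 12 were higher and 1 was lower, and around Bgn 5 of 19 were higher and 4 lower, where 18.6% of all genes were higher and 20.2% lower. The medians of these neighbours were 0.02, 0.08 and 0.13. Among the neighbours of Bgn, Plxnb3 (3.22), a plexin gene, Xlr4a (2.57), Gm14685 (2.28), the kinase gene Srpk3 (1.72) and Arhgap4 (1.16), named after their values were seen, were the 5 higher genes, with limma adjusted p between 1.2e-04 and 0.0074. No other gene was tested around Dcn and Lum.

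The collagens that these proteins coat were higher. Of 10 fibrillar and fibril-associated collagen genes tested, 9 rose and 0 fell, where 18.6% of all genes were higher and 20.2% lower. Their median log2 difference was 2.84. Col3a1 (4.35, SE 0.80), the collagen III chain, led, followed by the collagen I chain Col1a2 (3.78, SE 0.60), the collagen V chain Col5a2 (3.48, SE 0.43) and Col1a1 (3.45, SE 0.69). The limma adjusted p of these genes lay between 1.7e-04 and 0.0027. The exception, named after its value was seen, was Col14a1, a fibril-associated collagen known to bind decorin, which did not pass (0.76, SE 0.54, limma adjusted p = 0.29). The Col1a1 call was lost within chip 2, and Col5a2 was 1.63 when its probes were averaged.

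The enzymes that build the sugar chains were called about as often as other genes. Of 18 genes of the linker region and of chondroitin or dermatan sulfate, 5 rose and 2 fell, 7 of 18 in all against 38.8% of all genes, with a median log2 difference of 0.16. Chst3, a chondroitin 6-O-sulfotransferase, was detected in 5 of 5 MPNST-like tumors and in no pigmented tumor. With the background correction used here Chst3 was at least 7.22-fold higher (limma adjusted p = 4.7e-05). Without that correction its log2 difference was 1.61. Csgalnact1, which starts chondroitin chains, rose by 2.78 (SE 0.36, limma adjusted p = 2.2e-04), and Chst7, a further sulfotransferase, by 1.07 (SE 0.27, 0.0099). Csgalnact1 was 1.49 when its probes were averaged and lost its call within chip 1 (3.18, limma adjusted p = 0.090). Chst7 lost its call within chip 1 (1.68, limma adjusted p = 0.13), within chip 2 (0.65, 0.098) and without the 3 tumors with high skeletal muscle markers (0.80, 0.062). B4galt7, which adds the first galactose of the linker on every such chain, fell by 1.16 (SE 0.27, limma adjusted p = 0.0062). After median scaling that call was lost and 0 genes of this list were lower, while 4 were lower in the authors' values.

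Of 7 keratan sulfate genes tested 3 rose and 0 fell, where 38.8% of all genes were called, 18.6% as higher and 20.2% as lower. Papss2, which like Papss1 makes the sulfate donor of such chains, rose by 1.39 (SE 0.35, limma adjusted p = 0.0093). Papss1 was brighter, with means of 10.05 in MPNST-like and 10.12 in pigmented tumors, and did not pass (-0.07, limma adjusted p = 0.78). The sulfotransferase Chst1 rose by 1.28 (SE 0.40, 0.026) and its relative Chst2 by 0.76 (SE 0.17, 0.0051). The Chst1 call was lost in 9 of 23 alternatives, within each chip among them, Papss2 lost its call within each chip and was 0.77 when its probes were averaged, and 3 genes of this list were lower in the authors' values.

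Matrix proteases and their helpers were higher. Of 11 genes tested 7 rose and 0 fell, with a median of 1.57, where 18.6% of all genes were higher and 20.2% lower. Htra1, a secreted serine protease, rose by 3.88 (SE 0.55, limma adjusted p = 3.7e-04). Bmp1, which removes the propeptide of biglycan and of procollagens, rose by 2.68 (SE 0.29, 9.4e-05), and its enhancer Pcolce by 2.60 (SE 0.50, 0.0021). The Pcolce call was lost within chip 2 (1.88, limma adjusted p = 0.055). The collagenase gene Mmp13 rose by 2.90 (SE 0.92, limma adjusted p = 0.029), ranged from 4.77 to 10.30 over the MPNST-like tumors and lost its call in 9 of 23 alternatives, such as without MPNST-like 2 (2.33, limma adjusted p = 0.063) or MPNST-like 4 (2.27, 0.061).

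Of 20 receptors and ligands that bind these proteoglycans, 8 were higher and 4 lower, where 18.6% of all genes were higher and 20.2% lower. The receptor gene Egfr rose by 2.51 (SE 0.53, limma adjusted p = 0.0036). Its groups overlapped, with MPNST-like 4 at 7.49 and pigmented 4 at 7.73, and its call was lost within chip 2 (1.82, limma adjusted p = 0.058). Ccn4 and Ccn2, which encode matricellular proteins known to bind decorin, rose by 2.50 (SE 0.44, 0.0013) and 2.10 (SE 0.42, 0.0030). Both lost their calls within chip 1, Ccn4 at 2.70 (limma adjusted p = 0.24) and Ccn2 at 1.85 (0.21). Met, the receptor of hepatocyte growth factor, was detected in no MPNST-like tumor and in 5 of 5 pigmented ones. It stood at 4.22, 4.23, 4.31, 4.17 and 4.43 in MPNST-like 1 to 5, against 6.52, 7.33, 6.22, 6.29 and 6.43 in pigmented 1 to 5. With the background correction used here Met was at least 4.17-fold lower in the MPNST-like tumors (limma adjusted p = 3.1e-05). Without that correction its log2 difference was -0.97. Melanocytes are known to express Met. After median scaling 13 genes of this list were higher, and Ccn4 was 1.43 when its probes were averaged.

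Likeness of profiles was measured as the root mean square difference between gene-centred log2 values over the 10 tumors, a description with no test. Dcn and Bgn, by their brightest probes, were close to each other (0.28), and Bgn had no nearer gene than Dcn among all genes tested. The genes nearest to Dcn were Fxyd6 (0.27), Bgn and Abca9 (0.33), and those nearest to Bgn after Dcn were Igfbp7 (0.29) and Abca9 (0.31). Lum had no near relative within the family, the closest being Ogn at 1.34, and lay nearest to Mrgprf (0.66), Gpc3 (0.68) and Rarres2 (0.69). Ogn lay nearest to Cpa3 (0.47), a mast cell protease gene, Ccdc80 (0.54) and Sult1a1 (0.63). Cpa3 stood at 6.98, 9.12, 10.46, 9.45 and 10.46 in MPNST-like 1 to 5, against 5.52, 5.39, 7.68, 7.95 and 4.90 in pigmented 1 to 5, and like Ogn was lowest in MPNST-like 1 and highest in pigmented 4 within each group. Prelp lay nearest to Icam1 (0.20), Fmod to Enox1 (0.21) and Omd to Rnase6 (0.26). For genes that change little such distances are small by construction, as for Aspn with Nap1l4 (0.09).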

How the data were processed

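The 10 arrays lay on 2 chips. Chip 1 held tumors 1 and 2 of each group, and chip 2 the others. Replicate numbers are names. Per the labels, 100 ng RNA gave biotinylated cRNA. Per the file headers, the deposited scanner table gives each probe an average intensity and a p-value of detection. The authors' second table was taken as log2, since 2 to the power of its values follows the scanner intensity of that array linearly (R squared 1). Its column medians were 4.79, 4.85, 4.80, 4.80 and 4.82 for MPNST-like 1 to 5 and 4.79, 4.92, 5.00, 4.86 and 4.96 for pigmented 1 to 5. Its normalization is not given in the sources used here, and it served as an alternative. Intensities were corrected with limma 3.58.1 (R 4.3.3) neqc, offset 16, and quantile normalized. Probes detected at p under 0.05 on at least 3 arrays were kept (22480). Of 45281 probes, 34885 had 1 symbol, 18 several and 10378 none. The brightest probe stood for each of 11984 genes, and member probes were tested beside all 22480. lmFit and eBayes were used with Benjamini-Hochberg adjustment, checked on simulated data. Bounds ("at least") set the mean of one group against the lowest detected signal of each array of the other, and hold for this correction and offset only. Summed levels are normalized intensities less the offset. The 8 genes, the lists and the tests were chosen with earlier results of these data known, and the pairwise tests and the promoter motifs after seeing the data. Named genes were the 8 genes, up to 4 called genes per list with the largest differences (2 where none passed) and the 3 nearest profiles. Older symbols were matched through RefSeq synonyms. The number of arrays limits the precision. Python 3.11.15 with matplotlib 3.10.9 drew the figures.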

Additional observations from a re-analysis of the deposited data

Results flagged for a closer look

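Among 16 sets of 5 tumors (8 genes in 2 groups), 2 had a tumor far from the others, where chance gives about 1 in 20. Omd stood at 5.09 in pigmented 4, and the next pigmented tumor was at 4.36. Aspn stood at 4.16 in pigmented 5, with the next at 4.32, all below detection. The difference between the groups did not differ between the chips for any of 11984 genes at a limma adjusted p under 0.05. Among the 8 genes, Prelp had an unadjusted p under 0.05 for it (0.025).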

How the results depend on the processing

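The count of 7 higher genes fell to 3 within chip 1, where 2 tumors stand against 2, and the 12 higher probes to 6. Leaving out each tumor in turn gave 6 to 7 genes and 11 to 13 probes. In all 23 alternatives 0 genes and 0 probes were lower, and none of the 8 genes changed its direction. Lum and Bgn kept their calls in all 23 alternatives, and Dcn lost its call within chip 2, Fmod, Ogn and Omd within chip 1, and Prelp in 6 alternatives. Sizes of dim genes followed the background correction. Fmod was 0.50 and Omd 0.75 without it, and 0.70 and 0.98 with an offset of 50. The setting without the tumors with muscle RNA was chosen after seeing the data. So was the exchange of the Dcn probe in the pairwise comparisons, under which Dcn minus Bgn was 0.54 with ILMN_2596346 and 1.05 with ILMN_2604695, against -0.21 with the brightest probe. Aspn could not be tested under the stricter filter. No paired analysis was possible because the labels give no replicate numbers. Signal over background limits Aspn, Fmod, Omd and the dimmer Ogn, Dcn and Fmod probes.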
